A study of Zea mays subsp. mays with 11 samples.

Results

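The meiotic 24-PHAS loci B73_24PHAS_21372, B73_24PHAS_21380, B73_24PHAS_35075 and B73_24PHAS_51824 were described across 4 groups of maize anthers. They are 4 of the 659 PHAS loci measured, of which 154 were annotated as meiotic 24-PHAS. The first 3 were chosen by their fold change in 5 mm anthers, where they had the largest decreases of the table without AGO18, and B73_24PHAS_51824 was chosen by its fold change in 2 mm anthers, again the largest decrease. These values are given below as a description with no test.

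The libraries held small RNAs bound to Argonaute proteins, purified from fresh anthers with the TraPR ion exchange kit. ago18HM plants were homozygous for mutations in all 3 AGO18 copies: frameshifting single-base deletions in ago18a and ago18b made with CRISPR-Cas9, and a Mu transposon inserted into the ago18c coding region. The controls, ago18HT, were siblings heterozygous for the same 3 mutations, so that no group was free of mutant alleles, and the plants were mostly of the B73 inbred background. Anthers of 2 mm, in meiosis, gave 3 libraries of ago18HT and 2 of ago18HM, and anthers of 5 mm, after meiosis, gave 3 libraries of each genotype. The replicates came from distinct plants.

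PhasiRNAs are small RNAs cut at regular intervals from long noncoding precursors. At a 24-PHAS locus of grass anthers, the miRNA miR2275 typically directs cleavage of the precursor, which is made double-stranded and then diced into 24-nt duplexes by DCL5. One strand of a duplex is retained by an Argonaute protein, and AGO18 is a grass Argonaute of the reproductive organs. The values here are therefore levels of loaded small RNA, not of precursor transcripts.

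The most abundant small RNA that the study annotated at each locus is shown 5′ to 3′, because it identifies the molecule and because Argonautes sort small RNAs partly by their 5′ base, which is in capitals.
B73_24PHAS_21372: Gaguacggugccaaaaaaaacuca
B73_24PHAS_21380: Acaaugcucaucgacaugacacuc
B73_24PHAS_35075: Augggucuggcacaacgucacagu
B73_24PHAS_51824: Aaggagucugcucuagggaacauc

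All 4 were 24 nt long. The RNAs of B73_24PHAS_21380, B73_24PHAS_35075 and B73_24PHAS_51824 started with A, as did 144 of the 154 meiotic loci (93.5%), whereas that of B73_24PHAS_21372 started with G, as did only 4 meiotic loci in all. The GC content was 41.7% for B73_24PHAS_21372, 45.8% for B73_24PHAS_21380, 54.2% for B73_24PHAS_35075 and 50% for B73_24PHAS_51824, beside a median of 45.8% (range 29.2% to 66.7%) over the meiotic loci. The RNA of B73_24PHAS_21372 also held a run of 8 consecutive A. These sequences name the loci only, since the deposited values are sums over each locus.

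On B73 RefGen_v5, B73_24PHAS_21372 lay at chr4:7834848-7834929 and B73_24PHAS_21380 at chr4:7901820-7902929, 66.9 kb apart, and neither was assigned a strand. B73_24PHAS_35075 lay on the minus strand at chr6:38852499-38852907 and B73_24PHAS_51824 on the minus strand at chr9:156597487-156598824. With 82 bp, B73_24PHAS_21372 was the shortest of the 154 meiotic loci, whose median length was 1275.5 bp. The others measured 1110 bp (B73_24PHAS_21380), 409 bp (B73_24PHAS_35075) and 1338 bp (B73_24PHAS_51824). In the RefSeq annotation of the same assembly, B73_24PHAS_21372 lay inside the protein-coding gene LOC111591296 (chr4:7834798-7835157), and B73_24PHAS_51824 enclosed the transcribed pseudogene LOC103640422 (chr9:156597786-156598326). B73_24PHAS_21380 and B73_24PHAS_35075 overlapped no annotated gene, and their nearest genes were 23.9 kb and 151 kb away. Exon boundaries were not used here.

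All values are CPM, the reads of a locus scaled to the size of the library, and the libraries differed in depth, with CPM denominators of 33076189 to 53038060 reads at 2 mm and 5419067 to 17805878 at 5 mm. Reads assigned to PHAS loci numbered 574309 to 10738654 per library. One library stood apart. In ago18HT-2mm replicate 1, the premeiotic 24-PHAS loci had a median of 3.09 times the mean of the other 2 replicates, the meiotic 24-PHAS loci 0.539 times and the 21-PHAS loci 0.998 times. The ratio was 0.214 for B73_24PHAS_21372, 0.198 for B73_24PHAS_21380 and 0.165 for B73_24PHAS_35075, but 0.636 for B73_24PHAS_51824. Only 12, 10 and 7 of the 154 meiotic loci had a ratio at or below those of B73_24PHAS_21372, B73_24PHAS_21380 and B73_24PHAS_35075, counting the locus itself. The main 2 mm values of the 4 loci are therefore given with and without it. AGO18 transcripts are not part of the table, so the genotype labels were not checked on the mutated genes.

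At B73_24PHAS_21372, little loaded RNA was left in ago18HM at either length. In ago18HT-2mm it measured 69.3, 320 and 328 CPM in replicates 1, 2 and 3, and in ago18HM-2mm 9.58 and 14.8 CPM. In ago18HT-5mm it measured 231, 365 and 205 CPM, and in ago18HM-5mm 5.17, 6.64 and 4.49 CPM. Every ago18HM library thus lay below every ago18HT library at either length, and no library was at 0. Such a separation was found for 25.5% of all loci and 81.8% of the meiotic loci at 2 mm. At 5 mm, where the locus was chosen, it was found for 24.7% and 89.6%. The ago18HM-5mm values rested on 92, 36 and 30 reads, with exact 95% Poisson intervals of 4.17 to 6.34, 4.65 to 9.20 and 3.03 to 6.42 CPM that overlapped one another and covered counting error only.

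The mean of B73_24PHAS_21372 at 2 mm was 239 ± 147 CPM (SD, n = 3) in ago18HT and 12.2 ± 3.69 CPM (SD, n = 2) in ago18HM, so that 5.10% of the heterozygous level was left. The log2 fold change on the log2(CPM + 1) scale was −3.92 (SE 0.61), with a limma adjusted p of 0.00147 over all 659 loci. Without ago18HT-2mm replicate 1, 3.76% was left. With only the 2 compared groups in the limma fit, the adjusted p was 0.051, and over all 21 alternatives it ranged from 1.78e-05 to 0.051. At 5 mm, the contrast on which the locus was chosen, the means were 267 ± 85.7 and 5.43 ± 1.10 CPM (SD, n = 3 each), which left 2.04%.

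B73_24PHAS_21380, on the same stretch of chromosome 4, was lower in ago18HM at both lengths, more so at 5 mm. In ago18HT-2mm it measured 656, 3559 and 3060 CPM, and in ago18HM-2mm 199 and 285 CPM. In ago18HT-5mm it measured 3331, 3722 and 3338 CPM, and in ago18HM-5mm 86.9, 97.2 and 75.2 CPM. The genotypes did not overlap at either length, as held for 81.8% of the meiotic loci at 2 mm and 89.6% at 5 mm. Over all loci the shares were 25.5% and 24.7%. The ago18HT-5mm replicates lay closest together, with an SD of 6.46% of their mean.

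For B73_24PHAS_21380 at 2 mm, the mean was 2425 ± 1552 CPM (SD, n = 3) in ago18HT and 242 ± 60.9 CPM (SD, n = 2) in ago18HM, and 9.98% was left. The log2 fold change was −3.01 (SE 0.60; limma adjusted p = 0.00579). This call was lost in 2 of the 21 alternatives: the limma adjusted p was 0.0666 without ago18HM-2mm replicate 1 and 0.101 with only the 2 compared groups, and the range over all alternatives was 1.32e-05 to 0.101. Without ago18HT-2mm replicate 1, 7.31% was left. At 5 mm, where the locus was chosen, the means were 3464 ± 224 and 86.4 ± 11.03 CPM (SD, n = 3 each), and 2.50% was left.

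B73_24PHAS_35075 differed from the chromosome 4 pair in that the genotypes overlapped at 2 mm. In ago18HT-2mm it measured 126, 811 and 720 CPM, and in ago18HM-2mm 116 and 165 CPM. Replicate 1 of ago18HT thus lay between the 2 ago18HM libraries, and the other 2 replicates lay far above them. In ago18HT-5mm it measured 1391, 1442 and 1688 CPM, and in ago18HM-5mm 45.2, 43.7 and 24.3 CPM. At 5 mm, where the locus was chosen, the genotypes were widely separated. Separation without overlap held there for 24.7% of all loci and 89.6% of the meiotic loci.

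The 2 mm means of B73_24PHAS_35075 were 552 ± 372 CPM (SD, n = 3) in ago18HT and 141 ± 34.9 CPM (SD, n = 2) in ago18HM, and 25.5% was left. The log2 fold change of −1.59 (SE 0.69) did not pass the test (limma adjusted p = 0.147). Without ago18HT-2mm replicate 1 it was −2.45, with a limma adjusted p of 0.000227, and 18.4% was left. That was the only one of 21 alternatives in which the locus was called, and the adjusted p ranged from 0.000227 to 0.519 over all of them. At 5 mm, where the locus was chosen, the means were 1507 ± 159 and 37.7 ± 11.7 CPM (SD, n = 3 each), which left 2.50%.

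Of the 3 loci chosen at 5 mm, 2 were therefore called lower in ago18HM at 2 mm (adjusted p below 0.05 and fold change above 1.5). The same call was made for 17% of all 659 loci and for 70.1% of the 154 meiotic loci, so that 2 of 3 is close to the share of the meiotic class. Without ago18HM-2mm replicate 1, 1 of the 3 was called beside 40.3% of the meiotic loci, and without ago18HT-2mm replicate 1, 3 of 3 beside 78.6%. With only the 2 compared groups, 0 of 3 were called beside 35.95%. Every ago18HM-2mm library lay below every ago18HT-2mm library for 2 of the 3, beside 25.5% of all loci and 81.8% of the meiotic loci. By the size of the decrease at 2 mm, B73_24PHAS_21372 ranked 9, B73_24PHAS_21380 ranked 33 and B73_24PHAS_35075 ranked 111 among the 659 loci. The ranks were 7, 17 and 72 without ago18HT-2mm replicate 1.

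B73_24PHAS_51824 was lower in ago18HM at both lengths, and its mean loss was larger at 2 mm. Choosing the locus at 2 mm favours that order, so the order was not tested. It held with each library left out in turn, but leaving out libraries does not undo the choice. The size of the gap depended on which mutant library was kept. In ago18HT-2mm B73_24PHAS_51824 measured 720, 1302 and 964 CPM, and in ago18HM-2mm 13.3 and 42.3 CPM. In ago18HT-5mm it measured 377, 554 and 537 CPM, and in ago18HM-5mm 38.4, 21.6 and 11.8 CPM. The genotypes did not overlap at either length, as held at 5 mm for 24.7% of all loci and 89.6% of the meiotic loci, and within ago18HM the highest and lowest libraries differed about as much at one length as at the other.

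The 2 mm means of B73_24PHAS_51824, the contrast on which it was chosen, were 995 ± 292 CPM (SD, n = 3) in ago18HT and 27.8 ± 20.5 CPM (SD, n = 2) in ago18HM, and 2.79% was left. Without ago18HM-2mm replicate 1 (13.3 CPM) 4.25% was left, close to the 5 mm value, and without replicate 2 (42.3 CPM) 1.34% was left. The 2 mm log2 fold change was −4.48 and −6.08 in these cases. Without ago18HT-2mm replicate 1, 2.45% was left at 2 mm, with a log2 fold change of −5.49. At 5 mm the means were 489 ± 97.4 and 23.9 ± 13.4 CPM (SD, n = 3 each), and 4.89% was left. The 5 mm difference of −4.42 (SE 0.48) passed the test with a limma adjusted p of 4.69e-05, and it did so in all 21 alternatives (2.92e-05 to 4e-04). This call was shared by 21.1% of all loci and 84.4% of the meiotic loci, and B73_24PHAS_51824 ranked 58 by the size of its 5 mm decrease. Its log2 fold change lay near the median of the meiotic loci at that length, −4.03.

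**Figure D1:**
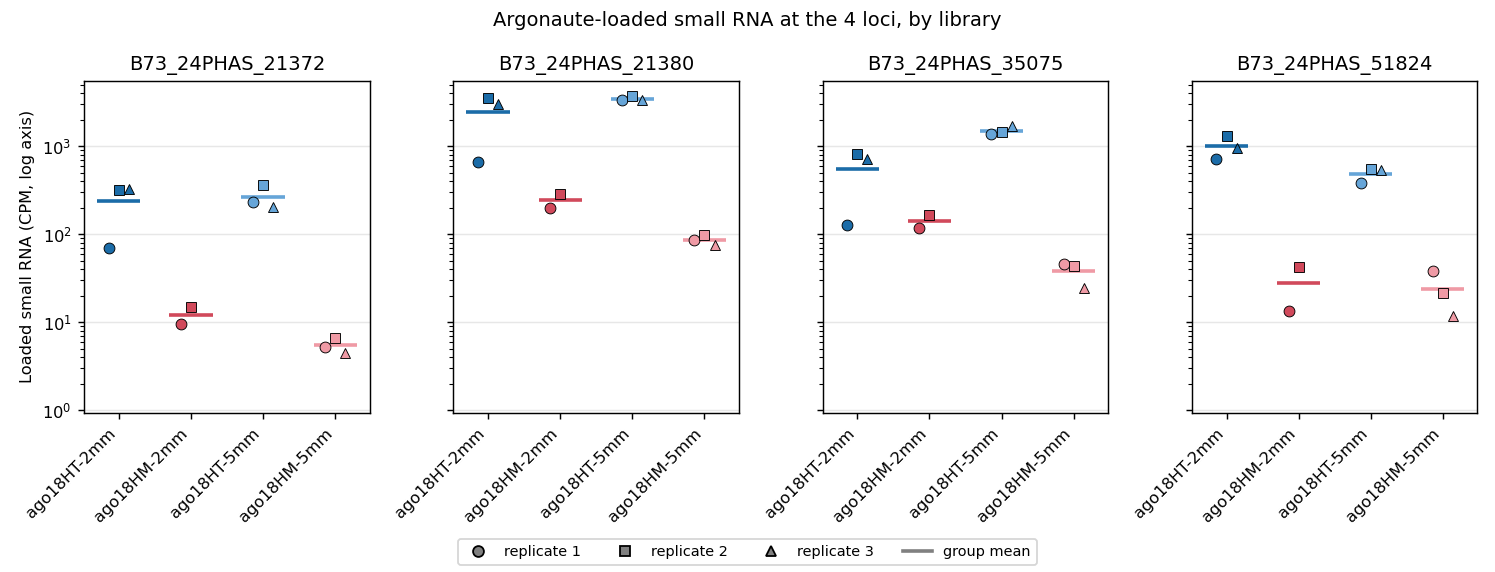
Loaded small RNA at the 4 loci in each of the 11 libraries, in CPM on a log axis. Points are libraries, with the replicate number given by the marker, and horizontal lines are group means; ago18HM lies below ago18HT in every panel except at 2 mm for B73_24PHAS_35075, where ago18HT-2mm replicate 1 (126 CPM) lies below ago18HM-2mm replicate 2 (165 CPM).

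With all libraries, the choosing values were close to those of loci left out at 5 mm and further from them at 2 mm. At 5 mm the log2 fold changes were −5.35 for B73_24PHAS_21372, −5.33 for B73_24PHAS_35075 and −5.31 for B73_24PHAS_21380, and the next 2 loci were B73_24PHAS_48391 with −5.26 and B73_24PHAS_35082 with −5.22. At 2 mm B73_24PHAS_51824 had −5.28, and the next 2 were B73_24PHAS_4294 with −4.89 and B73_24PHAS_4284 with −4.71. Its replicate SD at 2 mm was 0.852 (log2), wider than the gap to the next locus. It ranked 2 rather than 1 without ago18HT-2mm replicate 1, and also without either ago18HM-2mm replicate. Since 1 is added before the log, the loss of the low locus B73_24PHAS_21372 is understated most: the ratio of its 5 mm means was 49.1-fold, beside 40.1-fold for B73_24PHAS_21380 and 39.9-fold for B73_24PHAS_35075.

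Loss without AGO18 was the common pattern of the meiotic class, and the 4 loci lay at different places within it. The median log2 fold change at 2 mm was −1.99 over the meiotic loci (−2.38 without ago18HT-2mm replicate 1), −0.46 over the 75 premeiotic 24-PHAS loci and 0.20 over the 430 21-PHAS loci. At 5 mm the medians were −4.03, 0.22 and 0.11. Over all 659 loci they were −0.02 at 2 mm and 0.01 at 5 mm. In whole anthers, fewer cells that make these RNAs and less loaded RNA per cell cannot be told apart.

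**Figure D2:**
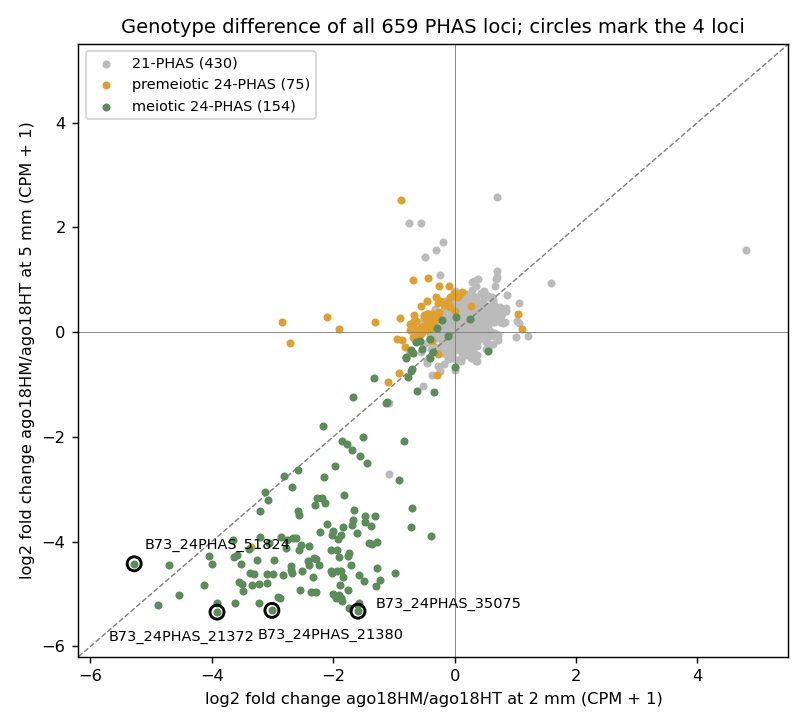
Log2 fold change of ago18HM against ago18HT at 2 mm (horizontal axis) and at 5 mm (vertical axis) for all 659 loci, on the log2(CPM + 1) scale; each point is a locus, colours give the class, circles mark the 4 loci and the dashed line marks equal change at both lengths. B73_24PHAS_21372, B73_24PHAS_21380 and B73_24PHAS_35075 lie at the bottom of the meiotic cloud with 2 mm values of −3.92, −3.01 and −1.59, and B73_24PHAS_51824 lies at its left edge (−5.28 at 2 mm, −4.42 at 5 mm).

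The order of the 4 groups differed between loci. For B73_24PHAS_21372 and B73_24PHAS_21380, ago18HT-5mm had the highest mean but overlapped ago18HT-2mm, followed by ago18HM-2mm and then ago18HM-5mm with no overlap between neighbours. For B73_24PHAS_35075, ago18HT-5mm lay above every ago18HT-2mm library, ago18HT-2mm overlapped ago18HM-2mm, and ago18HM-5mm was lowest without overlap. For B73_24PHAS_51824, ago18HT-2mm was highest and lay above every ago18HT-5mm library, and the 2 ago18HM groups overlapped. These orders share libraries with the choice of the loci and are given without a test.

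From 2 mm to 5 mm, the mean in ago18HT changed 1.12-fold for B73_24PHAS_21372, 1.43-fold for B73_24PHAS_21380, 2.73-fold for B73_24PHAS_35075 and 0.492-fold for B73_24PHAS_51824. Without ago18HT-2mm replicate 1 the ratios were 0.824, 1.05, 1.97 and 0.432 in the same order, so that the direction for B73_24PHAS_21372 turned with that library and B73_24PHAS_21380 came close to no change. The direction for B73_24PHAS_21372 also turned without ago18HT-5mm replicate 2 (0.912). In ago18HM the ratios were 0.446, 0.357, 0.268 and 0.861. The last one, that of B73_24PHAS_51824, had no stable direction: it was 0.566 without ago18HM-2mm replicate 1, 1.80 without ago18HM-2mm replicate 2 and 1.08 without ago18HM-5mm replicate 3. The locus with the highest ratio in ago18HT, B73_24PHAS_35075, had the lowest one in ago18HM, and the reverse held for B73_24PHAS_51824. Choosing the former at 5 mm and the latter at 2 mm favours such a pattern, so it was not tested.

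The genotype difference (log2 fold change) at 5 mm minus that at 2 mm was −1.43 for B73_24PHAS_21372, −2.30 for B73_24PHAS_21380, −3.74 for B73_24PHAS_35075 and 0.86 for B73_24PHAS_51824, beside a median of −1.48 over the meiotic loci. Without ago18HT-2mm replicate 1 these differences were −0.70, −1.53, −2.87 and 1.07, beside a meiotic median of −1.26. For B73_24PHAS_51824 the difference was 0.06 without ago18HM-2mm replicate 1 and 1.65 without replicate 2, so that its size rested on which mutant library was kept. They reuse the libraries on which the loci were chosen and therefore have no test.

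Expressed as a share of the summed CPM of all meiotic 24-PHAS loci, the loci could be followed apart from the loss of the class. At 2 mm, B73_24PHAS_51824 made up 0.612%, 0.548% and 0.466% of that sum in ago18HT and 0.0506% and 0.102% in ago18HM. The share of B73_24PHAS_35075 went the other way, with 0.107%, 0.342% and 0.348% in ago18HT-2mm and 0.440% and 0.398% in ago18HM-2mm. Without a test, both ago18HM values of B73_24PHAS_35075 lay above all 3 ago18HT values, so that it retained more of its loaded RNA at 2 mm than the class sum did. Beside the median meiotic locus this depended on ago18HT-2mm replicate 1. The 2 mm log2 fold change was −1.59 beside −1.99 with all libraries, and −2.45 beside −2.38 without that replicate. How many other meiotic loci rose in share was not counted. At 5 mm the share of B73_24PHAS_35075 was 0.521%, 0.578% and 0.768% in ago18HT and 0.275%, 0.260% and 0.219% in ago18HM.

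For B73_24PHAS_21380 the share in ago18HT-2mm was 0.557%, 1.5% and 1.48%, and in ago18HM-2mm 0.755% and 0.686%, so that the genotypes overlapped through replicate 1. At 5 mm its share was 1.25%, 1.49% and 1.52% in ago18HT and 0.529%, 0.578% and 0.679% in ago18HM. The share of B73_24PHAS_21372 was lower in every ago18HM library (0.0315% to 0.0406%) than in every ago18HT library (0.0589% to 0.159%). How many other meiotic loci had shares without overlap was not counted. At 5 mm the shares of the loci chosen there, and at 2 mm that of B73_24PHAS_51824, reuse the choosing contrast. The share of B73_24PHAS_51824 at 5 mm overlapped between genotypes, with 0.141% to 0.244% in ago18HT and 0.107% to 0.234% in ago18HM. Together the 4 loci held 1.34%, 2.52% and 2.45% of the meiotic sum in ago18HT-2mm, 1.28% and 1.22% in ago18HM-2mm, 2.0% to 2.63% in ago18HT-5mm and 1.005% to 1.07% in ago18HM-5mm.

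Because the loci differ 16.3-fold in length, levels were compared between them only per kilobase of locus. On that scale B73_24PHAS_21372, B73_24PHAS_21380 and B73_24PHAS_35075 were similar in ago18HT-5mm, with 3254 ± 1045, 3121 ± 202 and 3685 ± 388 CPM per kb (SD, n = 3), and ranked 19, 23 and 14 among the 154 meiotic loci. B73_24PHAS_51824 had 366 ± 72.8 CPM per kb and ranked 98, below the meiotic median of 669 CPM per kb. In ago18HM-5mm the levels were 66.3 ± 13.4, 77.9 ± 9.94 and 92.3 ± 28.6 CPM per kb for the first 3 and 17.9 ± 10.03 CPM per kb for B73_24PHAS_51824 (SD, n = 3), with a meiotic median of 32.5 CPM per kb. The place of a locus in the class depended on this scaling, which raises an 82 bp locus most. In CPM per locus, B73_24PHAS_21372, B73_24PHAS_21380 and B73_24PHAS_35075 ranked 129, 51 and 86 in ago18HM-5mm, so that B73_24PHAS_21372 and B73_24PHAS_35075 lay below the meiotic median of that group.

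The loci most like each member were named by the Pearson correlation of log2(CPM + 1) over the 11 libraries, a description that group differences common to the class raise for many loci. For B73_24PHAS_21372 they were B73_24PHAS_21380 (r = 0.992), B73_24PHAS_35588 (0.991) and B73_24PHAS_4234 (0.990). For B73_24PHAS_21380 they were B73_24PHAS_4234 (0.996), B73_24PHAS_26992 (0.994) and B73_24PHAS_21580 (0.993). B73_24PHAS_51824 was most like B73_24PHAS_4284 (0.978), B73_24PHAS_4409 (0.977) and B73_24PHAS_4294 (0.976), of which B73_24PHAS_4294 and B73_24PHAS_4284 were also the next 2 largest decreases at 2 mm. Among the 4 loci the correlation was highest between B73_24PHAS_21372 and B73_24PHAS_21380 and lowest between B73_24PHAS_35075 and B73_24PHAS_51824 (0.814).

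For B73_24PHAS_35075, the 2 most similar loci were B73_24PHAS_35082 and B73_24PHAS_56665 (r = 0.9996 each), ahead of B73_24PHAS_26991 (0.994), and the former 2 carried a major small RNA identical to that of B73_24PHAS_35075. They are shown together because the files cannot tell their reads apart with certainty.
B73_24PHAS_35075: Augggucuggcacaacgucacagu
B73_24PHAS_35082: Augggucuggcacaacgucacagu
B73_24PHAS_56665: Augggucuggcacaacgucacagu

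All 3 loci were 409 bp long. B73_24PHAS_35082 lay 84.6 kb from B73_24PHAS_35075 on chromosome 6, and B73_24PHAS_56665 on an unplaced scaffold. Reads with several positions were counted, but whether at all of their positions was not stated. As such a read may come from any copy, the 3 loci are not independent observations of a loss. B73_24PHAS_35075 is therefore uncertain as a single source. In the 8 libraries other than ago18HM-5mm, the highest of the 3 CPM values exceeded the lowest by 0.384% to 3.02%. In ago18HM-5mm replicates 1, 2 and 3 the gap was 8.20%, 13.7% and 20.4%. There B73_24PHAS_35075 rested on only 805, 237 and 162 reads, beside 5528 to 26816 in the other libraries, so counting error was larger. Whether the copies differed beyond it was not tested. Their 5 mm means in ago18HM were 37.7, 40.1 and 42.0 CPM, and the 3 loci ranked 2, 5 and 8 by the size of the 5 mm decrease. Among the meiotic loci, 18 shared their major small RNA with another locus.

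B73_24PHAS_21372 also had a partner in sequence. Its major small RNA and that of B73_24PHAS_21373, 6.41 kb away, could be aligned as the 2 strands of a duplex with 2-nt 3′ overhangs, the geometry that Dicer-like enzymes leave. Capitals mark the bases that paired.
B73_24PHAS_21372: GAGUACGGUGCCAAAAaAAACUca
B73_24PHAS_21373: AGUUUgUUUUGGCACCGUACUCcc

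Of 22 aligned positions 21 were paired, 1 was unpaired, and 16 consecutive bases matched on opposite strands. The alignment is a description of 2 annotated RNAs from separate loci and does not show that they formed a duplex. B73_24PHAS_21373 measured 435, 1028 and 1036 CPM in ago18HT-2mm and 149 and 266 CPM in ago18HM-2mm. At 5 mm it measured 1166, 1536 and 1504 CPM in ago18HT and 48.7, 43.5 and 30.9 CPM in ago18HM. The CPM of B73_24PHAS_21372 as a percentage of that of B73_24PHAS_21373 was 15.9%, 31.1% and 31.7% in ago18HT-2mm and 6.42% and 5.57% in ago18HM-2mm, so that the genotypes did not overlap. At 5 mm it was 19.8%, 23.7% and 13.6% in ago18HT and 10.6%, 15.3% and 14.6% in ago18HM, and the genotypes overlapped. How many other pairs of loci had ratios without overlap at 2 mm was not counted, and the ratio was not tested. The log2 fold change of B73_24PHAS_21373 was −1.95 at 2 mm and −5.07 at 5 mm, beside −3.92 and −5.35 for B73_24PHAS_21372. B73_24PHAS_21373 had −2.37 at 2 mm without ago18HT-2mm replicate 1.

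**Figure D3:**
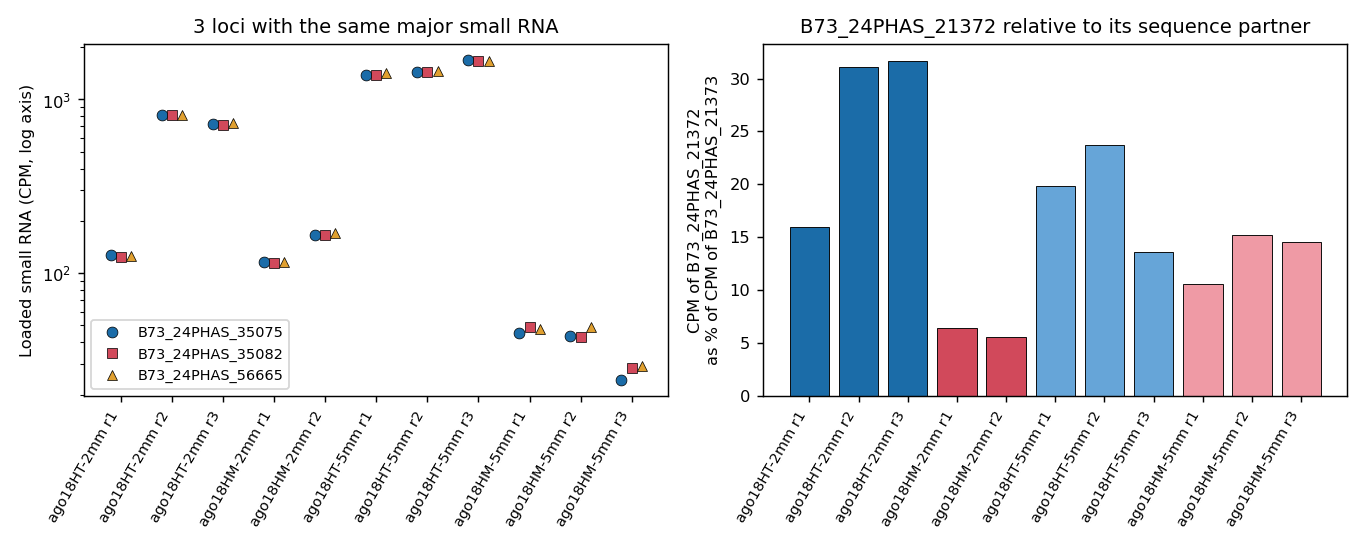
Left, CPM (log axis) of B73_24PHAS_35075 and of the 2 loci with the same major small RNA in each library; right, CPM of B73_24PHAS_21372 as a percentage of the CPM of B73_24PHAS_21373 in each library, with bars from 0 and blue for ago18HT, red for ago18HM. The 3 points of a library nearly coincide except in ago18HM-5mm, where they spread by 8.20% to 20.4% on few reads (162 to 805 for B73_24PHAS_35075). The bars are lowest in ago18HM-2mm (6.42% and 5.57%).

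The 2 loci of chromosome 4 and B73_24PHAS_35075 lay in clusters of meiotic 24-PHAS loci, and B73_24PHAS_51824 lay alone. Within 100 kb of B73_24PHAS_21372 or B73_24PHAS_21380 there were 5 other PHAS loci, and within 100 kb of B73_24PHAS_35075 there were 5 as well, all of them meiotic 24-PHAS and one of the latter the copy B73_24PHAS_35082. The nearest PHAS locus to B73_24PHAS_51824, B73_24PHAS_51550, was 4700 kb away. On chromosome 4, all 5 neighbours were called lower in ago18HM at 2 mm (log2 fold changes of −2.88 to −1.76) and at 5 mm (−5.08 to −4.65). On chromosome 6, 2 of 5 neighbours were called lower at 2 mm (−2.01 to −0.70) and 5 of 5 at 5 mm (−5.22 to −3.37). The 2 mm counts moved with single libraries: they were 2 and 0 without ago18HM-2mm replicate 1, 5 and 3 without ago18HM-2mm replicate 2, 5 and 4 without ago18HT-2mm replicate 1, and 4 and 1 without either of the other ago18HT-2mm libraries. These counts stand beside 70.1% and 84.4% of the meiotic loci called at the 2 lengths, and with 5 loci per cluster they do not set the clusters apart from the class.

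At 2 mm, B73_24PHAS_21372 had a log2 fold change of −3.92, and its neighbours at 5.81 kb and 6.41 kb, B73_24PHAS_21371 and B73_24PHAS_21373, had −2.83 and −1.95. B73_24PHAS_35075 and its neighbour B73_24PHAS_35076, 110 bases away, had −1.59 and −0.70 at 2 mm, with group means of 13.5 and 7.88 CPM for that neighbour, and neither passed the test. Differences between neighbouring loci were not tested.

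**Figure D4:**
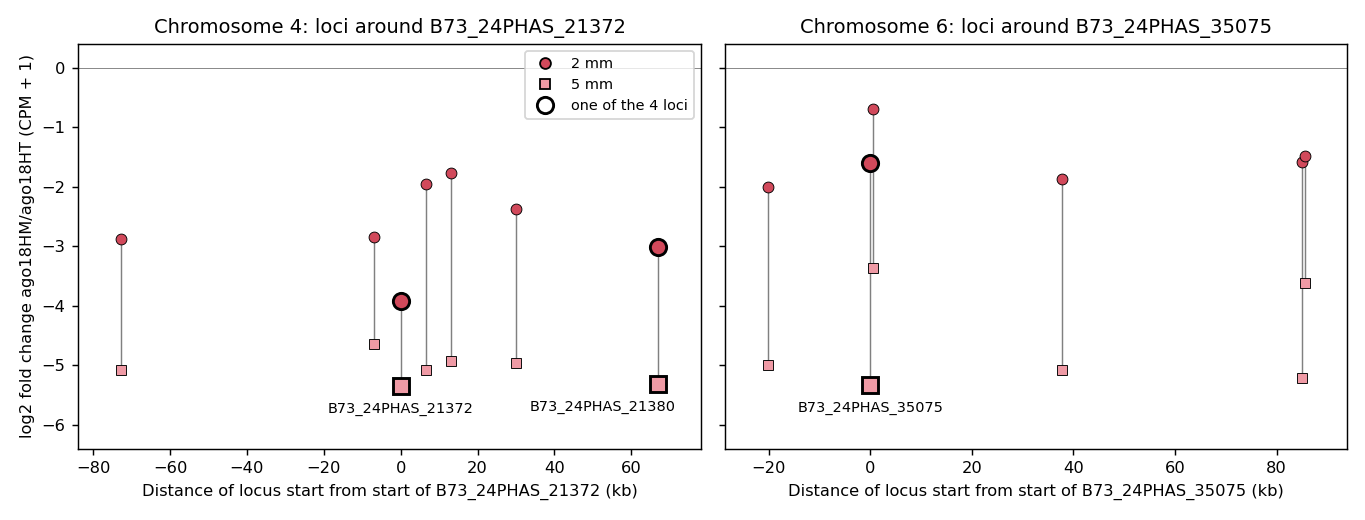
Log2 fold change of ago18HM against ago18HT, on the log2(CPM + 1) scale, for the meiotic 24-PHAS loci within 100 kb of B73_24PHAS_21372 or B73_24PHAS_21380 (left) and of B73_24PHAS_35075 (right), plotted by the distance of each locus start from that of B73_24PHAS_21372 or B73_24PHAS_35075 in kb. Circles are 2 mm, squares 5 mm, a grey line joins the 2 values of a locus and thick outlines mark the 4 loci; the 5 mm values run from −5.35 to −4.65 on the left and from −5.33 to −3.37 on the right.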

How the data were processed

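Argonaute-bound small RNA was sequenced from 11 libraries, grouped by sample titles. The authors mapped reads to B73 RefGen_v5 with Bowtie 1.3.1 and deposited CPM values made with edgeR 4.0.2. They counted reads over PHAS loci with featureCounts 1.6.3, including reads with several positions. How many positions of such a read were reported was not given. Which reads the CPM denominator covers was not given in the sources used here. Loci with at least 1 CPM in 2 libraries were kept (659 of 659, and the 4 loci). Log2(CPM + 1) was fitted with limma 3.58.1 in R 4.3.3, with 4 group means, an eBayes trend and p-values (two-sided) adjusted by Benjamini-Hochberg over all 659 loci. Fold changes on this scale understate changes of low loci. Read numbers come from the CPM step of each library, with 100% of values whole within 0.01 reads. A count of 0 allows 3 reads, or 0.0566 to 0.554 CPM. The fit was tested on simulated data. Class, position and major small RNA come from the annotation in the study's supplement, without its abundances, and gene names from RefSeq (Zm-B73-REFERENCE-NAM-5.0). Named loci were the 4 members, the next 2 decreases of each contrast, the 3 most correlated loci, loci within 100 kb and loci sharing 12 or more consecutive bases of the major RNA. Other loci were named after their values were seen. Members and lists were chosen with earlier results of these data known. Alternatives comprised 2 other pseudocounts, other filters, scalings and fits, the omission of each library and a replicate block.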

Additional observations from a re-analysis of the deposited data

How the results depend on the processing

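Of 210 comparisons of a result with an alternative, 0 reversed and 202 stayed within the tolerance set for their kind: the same side of the threshold for a tested value, 1.5 times for a count, and 1 replicate SD (log2) for an untested value. That SD was 0.852 for B73_24PHAS_51824 at 2 mm and 0.145 for B73_24PHAS_21380 at 5 mm, so the same move counts differently for them. Some comparisons could not move, so these counts overstate stability. All 659 loci passed the filter, so dropping it repeated the main fit. Omitting a library of one length left the fold changes at the other length unchanged. The fold changes on the choosing contrasts were picked as the largest decreases, so the lack of a reversal says little for them. With only the 2 compared groups, the loci called lower in ago18HM at 2 mm numbered 58 in place of 112, and the limma adjusted p at 2 mm was 0.051 for B73_24PHAS_21372 (−3.92) and 0.101 for B73_24PHAS_21380 (−3.01). That fit has fewer libraries to estimate the spread. A pseudocount of 5 gave −4.66 for B73_24PHAS_21372 at 5 mm, and scaling to the 21-PHAS sum gave −5.54 for B73_24PHAS_21380 at 5 mm. Leaving out each library gave 66 to 126 calls at 2 mm, lowest without ago18HM-2mm replicate 1, and 134 to 139 at 5 mm. At 2 mm it gave −4.65 to −3.54 for B73_24PHAS_21372, −3.79 to −2.57 for B73_24PHAS_21380 and −2.45 to −1.12 for B73_24PHAS_35075. For B73_24PHAS_51824 it gave −6.08 to −4.48 at 2 mm and −4.83 to −4.02 at 5 mm. Where it left 1 ago18HM-2mm library, that library was assumed to vary like the other groups.

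Scaling to the 21-PHAS sum moved the median log2 fold change of all loci to −0.30 at 2 mm and −0.21 at 5 mm, and median ratio scaling moved it to 0.05 and 0.12. The replicate block gave 110 and 139 lower calls and changed no call of the 4 loci. Same-numbered libraries did not deviate together in general (median r = −0.18 over 15 pairs, 5 above 0.1). The r values ran from −0.446 to 0.575 for these pairs and from −0.608 to 0.608 for differently numbered ones. With so few libraries per group, the check cannot tell whether the numbers pair the samples. The planned edgeR fit on recovered reads was not run, because too few low values were available to check the read step. A voom fit on those reads, chosen after seeing the data, gave 115 and 138 lower calls. It shares that limit, as do the read numbers and Poisson intervals given above. Depth limits mainly B73_24PHAS_21372 in ago18HM-5mm, with 30 to 92 reads.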
